A study of Mus musculus with 30 samples.

Results

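The genes described here form a program common to interleukin 10 (IL-10) producing helper T cells of 5 kinds. They were chosen from all 30 RNA-seq libraries of the series by a rule on the data: a gene belonged to the program when its 3 IL-10 positive libraries all lay above, or all lay below, the 3 IL-10 negative libraries of the same culture, in every one of 5 cultures. Of 23420 genes listed and 12611 with enough reads to be tested, 361 met the rule as higher and 256 as lower, 617 in all. The cells were naive CD4 T cells of C57BL/6 mice that carried 2 reporters, Foxp3-GFP and, for Il10, IL-10 Thy1.1, so every group shares these alleles, the stimulus of 2.5 ug/ml anti-CD3 and the irradiated, CD4-depleted splenocytes added at 6 per T cell. IL-10 positive and IL-10 negative cells, 3 libraries of each, came from Th1 cultures with IL-12 (20 ng/ml), Th2 cultures with IL-4 (20 ng/ml), Th17 cultures with TGF-beta 1 (2 ng/ml) and IL-6 (25 ng/ml), pathogenic Th17 (pTh17) cultures with IL-1 beta (20 ng/ml), IL-6 (25 ng/ml) and IL-23 (20 ng/ml), and Tr1 cultures with IL-27 (25 ng/ml). GFP negative T cells were sorted at 72 h by the Thy1.1 reporter, and 2000 were lysed for each library. The reporter follows Il10 transcription, so each comparison sets cells with the reporter signal against cells of the same kind of culture sorted as negative, whose Il10 levels are given below. The labels used here give neither an age nor the number of mice behind a library, and for both compartments they word the gate as Thy1.1 positive, so the sample names were followed.

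IL-10 restrains macrophages, dendritic cells and T cells, and its receptor signals through STAT3. Most helper T cell types can make it under strong or prolonged stimulation, and the factors that switch on Il10, among them Maf, Blimp-1 (Prdm1), Batf, Irf4 and Nfil3, are partly shared and partly particular to a lineage. The 5 cultures here differ in their master regulators, among them Tbx21 in Th1 and Gata3 in Th2 cells.

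Total expected counts were 4394704 to 11850597 per library, and levels below are CPM, counts scaled to library size; differences are log2 fold changes, positive minus negative, ± SE from edgeR over all 30 libraries. Whether the 3 replicates of a group were separate cultures or mice is not stated in the labels, so the spread that p-values rest on is that of these libraries and may be technical. T cell transcripts (10 markers, among them Cd3e, Cd4, Lck and Thy1, which is also a member) summed to 4880 to 7510 CPM in positive and 4710 to 6112 CPM in negative libraries, with no marker at 0 in a group. Transcripts of 13 B cell markers summed to 239 to 348 CPM in pTh17 positive and 117 to 122 in pTh17 negative libraries. Th1 libraries held 43.1 to 52.7 CPM when positive and 15.9 to 20.4 when negative, and Th2 libraries 49.6 to 66.1 and 41.2 to 46.4. Th17 libraries held 22.96 to 27.8 CPM when positive and 7.78 to 11.9 when negative, and Tr1 libraries 12.1 to 14.3 and 9.095 to 11.95. The B cell sum was thus higher in positive libraries, without overlap, in every culture. The part of B cell transcripts in the values was not tested in any culture. The summed NK cell markers were 111 to 116 CPM in Th1 positive against 19.2 to 22.7 in Th1 negative libraries and 97.99 to 102 in Tr1 positive against 18.1 to 22.7 in Tr1 negative ones. They were also higher in Th17 positive libraries (12.3 to 17.6 against 6.725 to 8.25 CPM) and pTh17 ones (6.81 to 9.67 against 0.267 to 1.71). In Th2 the ranges overlapped. Regulatory T cell markers summed to 38.8 to 46.8 CPM in Th17 positive and 188 to 193 in Th17 negative libraries, were also lower in Th1 and Th2 positive libraries, and summed to 54.5 to 57.4 CPM in pTh17 positive and 46.6 to 53.3 in pTh17 negative libraries. Dendritic cell markers summed to 20.4 to 22.8 CPM in pTh17 positive and 8.13 to 11.7 in pTh17 negative libraries. They were also higher in Th1 positive libraries (11.7 to 12.8 against 5.66 to 7.27 CPM) and Th2 ones (9.44 to 11.7 against 5.61 to 6.43). In Th17 they were lower in positive libraries (2.12 to 3.375 against 4.335 to 7.05 CPM), and in Tr1 the ranges overlapped. The 2 CD8 T cell markers summed to 40.5 to 45.6 CPM in Tr1 positive and 23.2 to 24.6 in Tr1 negative libraries, and to 17.6 to 19.5 CPM in Th2 positive and 9.85 to 12.7 in Th2 negative libraries. In Th1 the sum was 28.45 to 34.6 CPM in positive and 18.8 to 24.4 in negative libraries, and in Th17 and pTh17 the ranges overlapped. The part of these cell types in the values was not tested. No single marker of B, myeloid, dendritic, NK, erythroid, mast, CD8 or regulatory T cells on the lists met the rule, although the summed B cell markers lay higher in every culture. One Tr1 positive library, replicate 18, stood apart from its group, its 10 most abundant genes taking up 32.8% of counts, and 24.9% and 24.6% in the other 2. Without it 389 genes met the rule as higher and 266 as lower, of which 353 and 243 were among the 361 and 256.

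The program was a small fraction of what differed in any 1 culture. Groups that do not overlap were found for 26.8% of tested genes in the higher and 24.6% in the lower direction in Th1, 20.9% and 17.8% in Th2, 31.2% and 31.2% in Th17, 17.4% and 15.3% in pTh17, and 23.7% and 17.7% in Tr1. In all 5 at once these shares were 2.86% higher and 2.03% lower. A further 735 genes were higher and 574 lower in exactly 4 cultures. The culture that broke the pattern was most often pTh17 (236 of 735 and 210 of 574), followed by Th2 (197 and 128), and least often Th1 (27 and 40). In the opposite direction in the remaining culture were 43 of the 130 genes higher everywhere but in Th17, against 1 of the 27 higher everywhere but in Th1. On the lower side these counts were closer in share, 20 of 83 for Th17 and 8 of 40 for Th1.

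**Figure D1:**
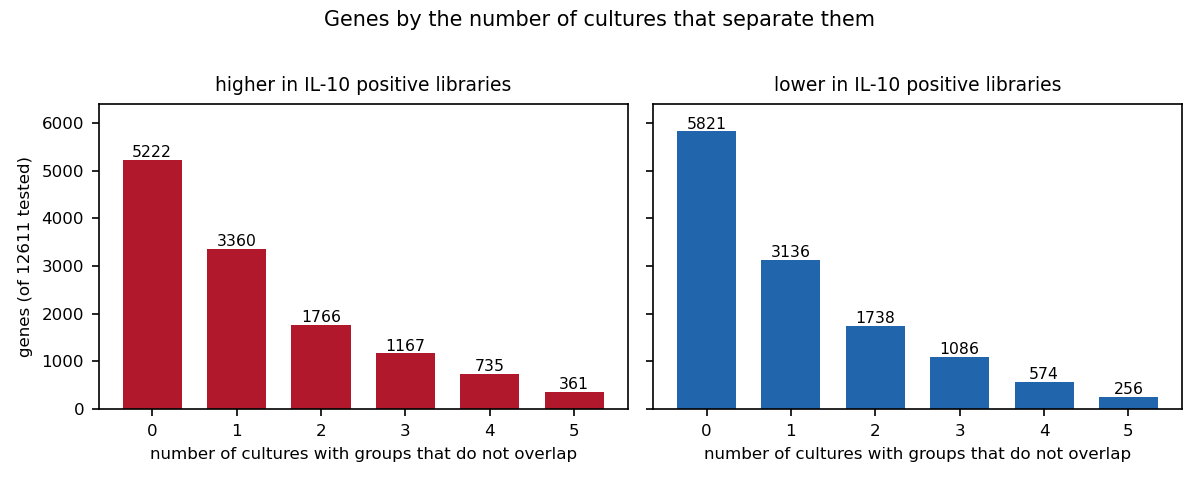
The bars give the number of genes, of 12611 tested, whose 3 IL-10 positive libraries lay above (left panel) or below (right panel) the 3 IL-10 negative libraries in 0 to 5 cultures (x axis). The count falls with each further culture, to 361 genes higher and 256 lower in all 5.

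The genes of the program differed widely in size of difference. Averaged over the 5 cultures the higher genes had a median log2 fold change of 1.06 (0.16 to 5.19), with 191 at least 2-fold and 50 at least 4-fold higher. The lower genes had a median of -0.66 (-4.49 to -0.18), with 61 at least 2-fold and 13 at least 4-fold lower. All 617 were also called in edgeR's test of the mean over cultures, beside 29.6% of tested genes called higher and 28.2% called lower (57.8% in all), but that test uses the contrast that chose them. Members just inside the rule were Gstt3, Kif20b and Ube2s among the higher and Nlrc5, Maf1 and Senp7 among the lower genes, with at most 0.0022 on the log2(CPM + 0.1) scale between the nearest positive and negative library. Just outside, Ccl3, Cyp11a1 and Dapk2 were among the genes that tied with a negative library at a gap of 0, and Nfkbia, Ddx5 and Rprd2 missed it on the lower side with gaps down to -0.00070. With a gap of at least 25% required in every culture, 65 higher and 43 lower genes remained. Of the members 353 higher and 249 lower genes averaged at least 5 CPM.

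The same genes differed by different amounts in the 5 cultures. For the higher genes the median log2 fold change was 1.60 in Th17, 1.18 in Tr1, 1.09 in Th1, 0.47 in pTh17 and 0.36 in Th2, and the largest difference fell in Th17 for 161 and in Tr1 for 111 of 361 genes. For the lower genes it was -0.89 in Th17, -0.73 in Th1, -0.56 in Tr1, -0.50 in Th2 and -0.47 in pTh17. Over all genes tested these medians lay between -0.04 and 0.05. Differences were at least 2-fold in each of the 5 cultures for 23 higher genes, which include Il10, Spp1, Ccl4, Ccr1, Ccr2, Cxcr6, Tigit, Zbtb32 and Asb2, and for 15 lower genes, which include Dapl1, Igfbp4, Tcf7, Klf3 and Selp. Among genes of 5 CPM or more, those with the narrowest spread over cultures included Sept9 (0.15 to 0.22), a cytoskeletal septin, and Tomm34 (-0.23 to -0.17), a mitochondrial import factor. Levels of the members in the negative libraries differed among the 5 cultures for all 361 higher and 254 of 256 lower genes. Of all genes tested 88.2% did so (edgeR's F test over the 5 negative groups at an adjusted p below 0.05). The rule uses these libraries too, though not between cultures. The members were not matched to all genes for expression level, so these shares are not read as a trait of the program.

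Il10 itself, the gene the reporter follows, comes first. Il10 stood at 389.6, 366 and 386 CPM in the positive and 6.43, 4.51 and 6.25 in the negative Th1 libraries, and at 833, 750.1 and 861 in the positive and 69.02, 58.1 and 71.3 in the negative Th2 libraries. Positive Th17 libraries held 21.5, 24.1 and 24.8 CPM and negative ones 0.983, 0.760 and 3.25, positive pTh17 libraries 53.7, 50.95 and 50.03 and negative ones 1.204, 0.781 and 0.353, and positive Tr1 libraries 39.4, 53.5 and 49.2 and negative ones 0, 0.568 and 0.854. No positive library fell within the range of the negative ones of its culture, yet the 3 Th2 negative libraries lay above every positive library of Th17, pTh17 and Tr1. The mean log2 fold change was 5.19 ± 0.09, with culture values of 3.62 (Th2) to 6.47 (Tr1). Thy1, whose reads can come from both the endogenous surface antigen and the Thy1.1 reporter, stood at 1176, 1187 and 1309 CPM in Th1 positive libraries against 179, 159 and 169 in negative ones, and at 158, 157 and 150.1 CPM in Th17 positive libraries against 66.7, 71.2 and 65.9 in negative ones, with a mean difference of 1.60 ± 0.03. Beside Il10 (chr1:131019845-131024970 in mm10), the next gene on chromosome 1 to meet the rule was Mapkapk2 (chr1:131053700-131097871), which encodes MK2, a kinase below p38 that stabilises cytokine mRNAs. Mapkapk2 stood at 556, 556 and 578 CPM in Th1 positive libraries against 74.7, 68.4 and 60.9 in negative ones, and at 38.9, 42.7 and 50.1 CPM in Tr1 positive libraries against 19.9, 23.3 and 16.5 in negative ones. Its culture differences ran from 0.51 (Th17) to 3.06 (Th1).

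Of the cytokine list (23 genes tested) only Spp1 and of the chemokine list (8 tested) only Ccl4 met the rule in all 5 cultures. Over these lists 8 cytokine and 3 chemokine genes were called higher and 2 and 1 lower in the mean over cultures. Of all genes tested 29.6% were called higher and 28.2% lower, the shares to set beside the called counts of every list below. Spp1 encodes osteopontin, a secreted phosphoprotein that T cells and macrophages make. Spp1 stood at 14.4, 18.6 and 15.9 CPM in the positive and 3.32, 0.644 and 1.28 in the negative Th1 libraries, and at 31.98, 40.6 and 35.5 in the positive and 9.04, 11.9 and 6.77 in the negative Th2 libraries. For Spp1 the Th17 values were 5.14, 11.02 and 11.4 CPM in positive and 0, 0.608 and 0.619 in negative libraries, those of pTh17 57.6, 51.5 and 58.4 in positive and 8.67, 4.13 and 5.76 in negative ones, and those of Tr1 3.30, 4.01 and 4.88 in positive and 0, 0 and 0.285 in negative ones. The groups lay apart in every culture and came closest in Th2, while the negative libraries of Th17 and Tr1 held almost no Spp1. The mean log2 fold change of Spp1 was 3.56 ± 0.20. Ccl4 encodes MIP-1 beta, a chemokine that attracts leukocytes. Ccl4 stood at 150.3, 119 and 129 CPM in the positive and 22.2, 13.04 and 17.7 in the negative Th1 libraries, and at 16.4, 16.9 and 16.4 in the positive and 1.36, 2.33 and 1.61 in the negative Th2 libraries. Th17 libraries showed 3.49, 5.98 and 2.34 CPM of Ccl4 when positive and 0.655, 0.304 and 0.619 when negative, pTh17 libraries 207, 216 and 189 when positive and 36.4, 35.9 and 39.3 when negative, and Tr1 libraries 202, 235 and 251 when positive and 7.92, 8.71 and 8.25 when negative. The groups did not overlap in any culture, and the mean difference was 3.25 ± 0.10. Its close relative Ccl3 was separated in the other 4 cultures and missed the rule by the tie named above, in Th17.

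Spp1, Ccl4, Ccr1 and Il1r2 are also made by myeloid cells, so the summed level of 14 myeloid markers is given beside them. It was 78.9 to 87.6 CPM in positive and 25.4 to 27.9 in negative Th1 libraries, 9.64 to 14.4 and 11.04 to 13.6 in positive and negative Th2 libraries, and 5.05 to 8.43 and 11.1 to 14.9 in positive and negative Th17 libraries. It was 32.7 to 41.3 CPM in positive and 17.7 to 19.2 in negative pTh17 libraries, and 25.8 to 30.3 in positive and 17.4 to 22.9 in negative Tr1 libraries. In Th2 these ranges overlapped and in Th17 the positive libraries were the lower ones. C1qa was at 0 in the positive libraries of all 5 cultures, C1qb in those of all but Tr1, and Lyz2 in the positive libraries of Th2 and Tr1. Among negative libraries C1qa was at 0 in Th1, Th2 and pTh17, C1qb in all 5 cultures, and Lyz2 in Th2, Th17 and pTh17. Of the other markers of the list some were higher and some lower in positive libraries, depending on the culture. Apoe stood at 2.135, 2.24 and 2.15 CPM in Th17 positive libraries against 6.55, 5.01 and 4.18 in negative ones. Itgam stood at 63.7, 69.1 and 74.6 CPM in Th1 positive libraries against 21.7, 14.97 and 20.5 in negative ones. Lyz2 stood at 3.75, 2.37 and 2.28 CPM in pTh17 positive libraries with all 3 negative ones at 0, and Cd68 at 12.6 ± 1.35 CPM in pTh17 positive libraries against 4.94 ± 1.099 in negative ones (SD, n = 3 each). The part of myeloid transcripts in the values of the 4 genes was not tested in any culture.

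**Figure D2:**
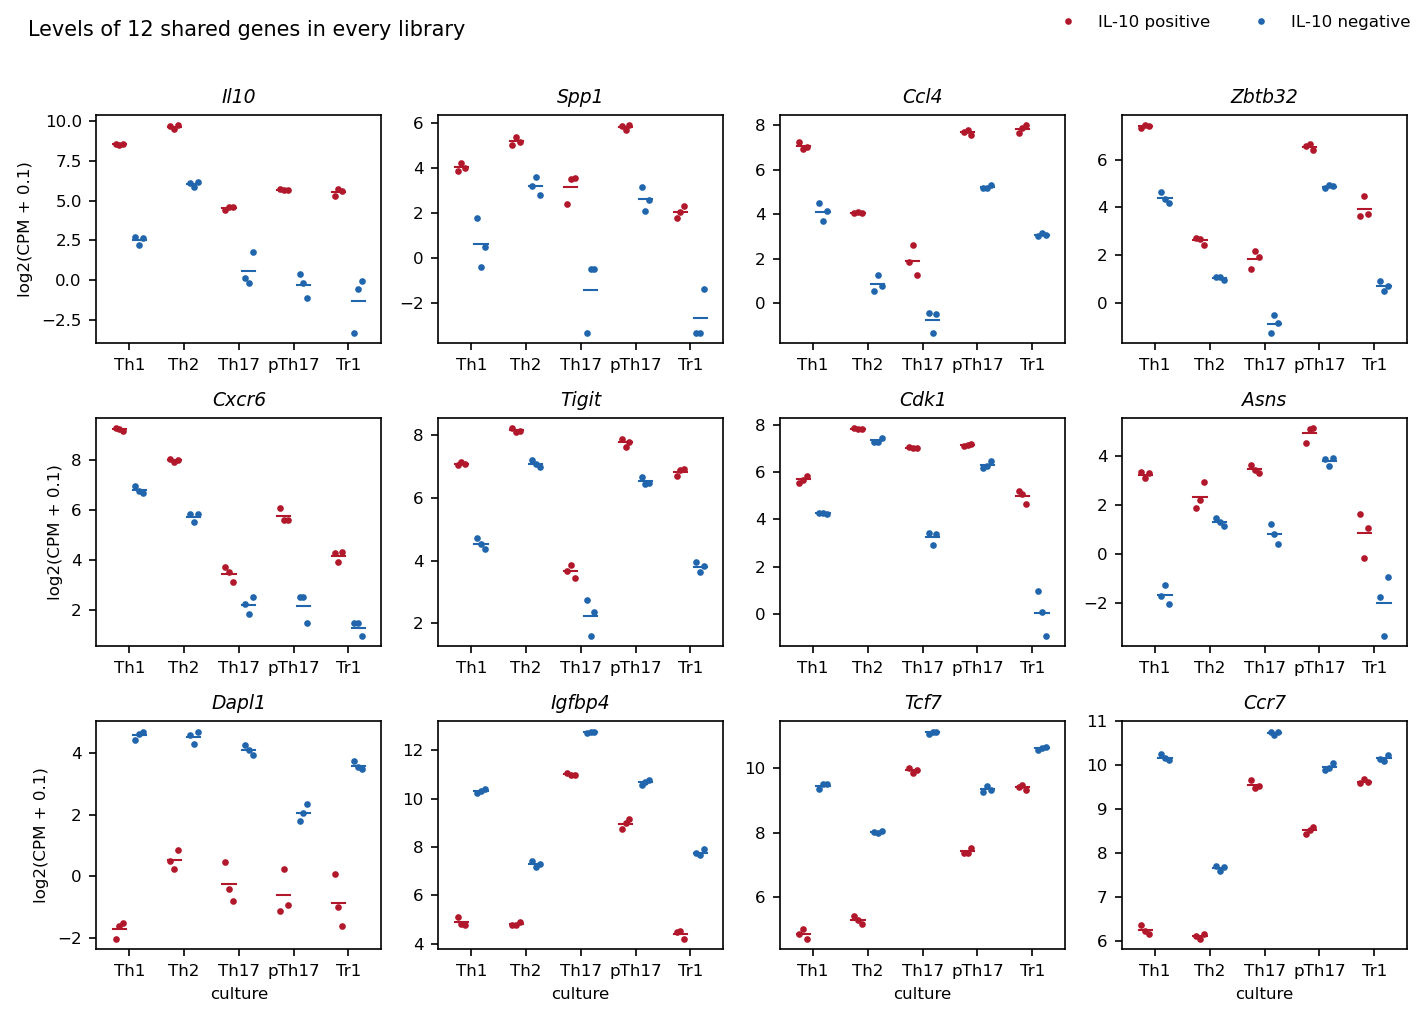
Each point is 1 library, on a log2(CPM + 0.1) axis, for 12 genes of the program in 5 cultures (x axis), with IL-10 positive libraries left (red) and IL-10 negative right (blue) and a bar at the group mean of 3. The first 8 genes lie higher and the last 4 lower in the positive libraries of every culture, from starting levels that differ between cultures.

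Some chemokine receptors that guide effector T cells into tissue were part of the program, and others were not. Of 15 chemokine and egress receptor genes tested, those that met the rule included Cxcr6, Ccr1 and Ccr2 as higher and Ccr7 and S1pr1 as lower. In the mean over cultures 8 were called higher and 4 lower, beside 29.6% and 28.2% of all genes tested. Cxcr3 and Ccr4, named after their values were seen, took opposite directions in different cultures. Cxcr3 stood at 2.45, 2.38 and 2.88 CPM in Th1 positive libraries against 25.1, 28.8 and 25.0 in negative ones. It was also lower in pTh17 but higher in Th2. Ccr4 was lower in Th1, Th2 and pTh17 and higher in Th17. Cxcr6 encodes the receptor of Cxcl16. Cxcr6 stood at 621, 614 and 582 CPM in the positive and 127, 109 and 103 in the negative Th1 libraries, and at 263, 247 and 261 in the positive and 57.1, 45.8 and 57.9 in the negative Th2 libraries. Positive Th17 libraries held 12.9, 11.3 and 8.60 CPM and negative ones 4.59, 3.50 and 5.57, positive pTh17 libraries 67.02, 48.6 and 48.3 and negative ones 5.66, 5.60 and 2.71, and positive Tr1 libraries 19.3, 15.02 and 19.7 and negative ones 2.64, 2.65 and 1.85. The groups did not overlap, and the mean log2 fold change was 2.49 ± 0.08. Ccr2, the receptor of Ccl2, differed by 2.22 ± 0.08 (1.26 (Th17) to 3.52 (Tr1)), and Ccr1 by 2.56 ± 0.21 (1.21 (Tr1) to 4.14 (Th17)).

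Cytokine receptor genes were found on both sides of the program. Il2ra and Il2rb, the alpha and beta chains of the IL-2 receptor, Il12rb1 and Il12rb2, the chains of the IL-12 receptor, and Il1r2, a decoy that binds IL-1 without signalling, met the rule as higher, while Il6ra and Il6st, the chains of the IL-6 receptor, and Ifngr2, a chain of the interferon gamma receptor, met it as lower. Of the 25 receptor genes tested 10 were called higher and 9 lower, beside 29.6% and 28.2% of all genes tested. Il2ra stood at 736 ± 10.1 CPM in Th1 positive libraries against 224 ± 11.1 in negative ones, and at 439 ± 25.9 CPM in Th17 positive libraries against 88.5 ± 5.22 in negative ones (SD, n = 3), with a mean log2 fold change of 1.49 ± 0.03. Il12rb1 differed by 1.36 ± 0.03, Il12rb2 by 0.81 ± 0.04 and Il2rb by 0.54 ± 0.03. Il1r2 held 423, 394 and 368 CPM in pTh17 positive libraries against 139, 117 and 126 in negative ones, and 48.4, 34.4 and 47.5 CPM in Th2 positive libraries against 6.42, 2.42 and 3.72 in negative ones. In Tr1 its negative libraries were all at 0 and its positive libraries held 0.472, 0.401 and 0.219 CPM, so that the fold there is only bounded, at least 2.09-fold higher if the negative group is set at 3 counts. Il6ra differed by -1.40 ± 0.05 (-2.62 (Th1) to -0.56 (pTh17)), and Il6st differed by -0.94 ± 0.05 (-1.18 (Th17) to -0.72 (pTh17)). Both receptor chains were lower also in the Th17 and pTh17 cultures, to which IL-6 had been added.

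Of 19 co-inhibitory receptor and ligand genes tested, Tigit, Ctla4 and Pdcd1 met the rule as higher and Cd96 as lower. Over the list 10 were called higher and 6 lower, beside 29.6% and 28.2% of all genes tested. Tigit encodes a receptor that competes with Cd226 for the ligands CD155 and CD112. Tigit stood at 131, 142 and 135 CPM in the positive and 26.1, 23.2 and 20.6 in the negative Th1 libraries, and at 296, 277 and 283 in the positive and 147, 136 and 126 in the negative Th2 libraries. For Tigit the Th17 values were 12.7, 14.4 and 10.7 CPM in positive and 6.63, 2.94 and 5.02 in negative libraries, those of pTh17 236, 198 and 222 in positive and 101, 86.2 and 88.5 in negative ones, and those of Tr1 105, 118 and 120.0 in positive and 15.3, 12.3 and 13.97 in negative ones. No culture showed overlap, and the mean difference was 1.86 ± 0.05. Pdcd1, which encodes PD-1, differed by 1.248 ± 0.05 and Ctla4 by 0.93 ± 0.03, with culture values of 0.31 (pTh17) to 2.32 (Th1) and 0.64 (Th1) to 1.18 (pTh17). Cd96, another receptor of the Tigit ligand family, differed by -1.01 ± 0.05. Lag3 (0.59 ± 0.03, edgeR adjusted p = 8.13e-21) did not meet the rule, as its Th2 groups overlapped. It differed by 0.56 in Th1, 0.07 in Th2, 0.60 in Th17, 0.33 in pTh17 and 1.41 in Tr1. Havcr2, which encodes Tim-3, did not either: it stood at 114, 132 and 135 CPM in Th1 positive libraries against 3.94, 5.31 and 4.41 in negative ones, and in Th17 at 0.0970, 0 and 0.187 CPM in positive libraries with all 3 negative ones at 0. From the TNF receptor and costimulation list (21 tested, 9 called higher and 8 lower) Tnfrsf9, which encodes 4-1BB, differed by 1.39 ± 0.04, Tnfrsf4, which encodes OX40, by 1.13 ± 0.04, and Cd80 by 1.89 ± 0.29 at a mean level of only 1.14 CPM.

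The transcription factor gene with the largest mean difference among those named here was Zbtb32, a zinc finger repressor of cytokine genes in T cells. Zbtb32 stood at 158, 171 and 169 CPM in the positive and 25.1, 20.6 and 18.2 in the negative Th1 libraries, and at 6.60, 6.28 and 5.37 in the positive and 2.04, 2.04 and 1.86 in the negative Th2 libraries. Th17 libraries showed 2.62, 4.39 and 3.74 CPM of Zbtb32 when positive and 0.328, 0.608 and 0.464 when negative, pTh17 libraries 94.6, 98.8 and 84.9 when positive and 27.8, 30.2 and 29.6 when negative, and Tr1 libraries 12.5, 22.04 and 13.1 when positive and 1.83, 1.32 and 1.56 when negative. Positive and negative libraries did not overlap, and the log2 fold change was 2.50 ± 0.10, with culture values of 1.62 (Th2) to 3.34 (Tr1). Runx2, a Runt family factor, differed by 1.39 ± 0.07, Rbpj, the DNA-binding partner of Notch, by 0.91 ± 0.05, Irf5, an interferon regulatory factor, by 1.01 ± 0.11, and Foxm1, a driver of mitotic genes, by 1.59 ± 0.10. These 4 were picked out after their values were seen.

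Of 28 genes known as regulators of Il10, only Batf and Nfil3 met the rule in all 5 cultures, although 13 were called higher and 13 lower in the mean over cultures (edgeR, adjusted p below 0.05). Batf stood at 147, 139.9 and 136 CPM in the positive and 86.5, 76.3 and 86.4 in the negative Th1 libraries, and at 435, 417 and 430.1 in the positive and 303, 291 and 318 in the negative Th2 libraries. Positive Th17 libraries held 111, 119.7 and 117 CPM and negative ones 69.6, 50.8 and 45.3, positive pTh17 libraries 178, 182 and 174 and negative ones 169.7, 156 and 174, and positive Tr1 libraries 70.03, 75.9 and 72.7 and negative ones 53.8, 45.4 and 63.2. Batf, an AP-1 family factor, thus lay higher in every positive group, with the smallest distance in pTh17, where its difference was 0.10 ± 0.09. Nfil3, a basic leucine zipper factor, differed by 1.53 ± 0.08 (0.28 (Th2) to 3.003 (Tr1)). Maf, which binds the Il10 promoter, was higher in 4 cultures and level in Th17, where it stood at 144, 132 and 146 CPM in Th17 positive libraries against 133, 138 and 143 in negative ones. Its mean difference was 1.19 ± 0.05 (edgeR adjusted p = 3.23e-21), and that in Th17 0.03 ± 0.10 (adjusted p = 0.822). Prdm1 showed the same pattern, with a mean of 1.61 ± 0.15 (edgeR adjusted p = 1.26e-11), -0.27 ± 0.56 in Th17 (adjusted p = 0.704) and 1.94, 0.187 and 0.374 CPM in Th17 positive libraries against 0.491, 1.98 and 0.464 in negative ones. Bhlhe40, a helix-loop-helix repressor, was higher in every culture but pTh17, with a mean of 1.31 ± 0.04 (edgeR adjusted p = 9.91e-26) and 0.04 ± 0.08 in pTh17 (adjusted p = 0.811). Of the 28, Nfil3 had the highest difference in the culture where it differed least, 0.28 in Th2.

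Other regulators took opposite directions in different cultures. Bach2, a repressor that keeps T cells resting, was lower in Th1 (-1.66 ± 0.07), Th2 (-1.62 ± 0.07), pTh17 (-0.76 ± 0.07) and Tr1 (-0.34 ± 0.07) and higher in Th17 (0.38 ± 0.06), with groups that do not overlap in any culture and a mean of -0.80 ± 0.03 (edgeR adjusted p = 6.53e-24). Irf4 was higher in Th17 (1.68 ± 0.07) and Tr1 (0.75 ± 0.08) and lower in Th2 (-0.22 ± 0.07), and without the Th17 culture its mean of 0.41 ± 0.03 (edgeR adjusted p = 1.58e-13) was no longer called, at 0.09 with an adjusted p of 0.0547. Ahr, the aryl hydrocarbon receptor, was higher in Th17 (1.90 ± 0.17) and lower in pTh17 (-0.85 ± 0.24), and its mean of 0.18 ± 0.16 was not called (edgeR adjusted p = 0.377). Egr2 was higher in Tr1 (0.30 ± 0.11) and lower in Th1 (-0.73 ± 0.10), Th17 (-0.31 ± 0.10) and pTh17 (-0.74 ± 0.10), with a mean of -0.28 ± 0.04 (edgeR adjusted p = 6.6e-07). Ikzf3, which encodes Aiolos, had a mean of 0.20 ± 0.05 (edgeR adjusted p = 0.000348), which without the Tr1 culture was 0.12 with an adjusted p of 0.052.

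**Figure D3:**
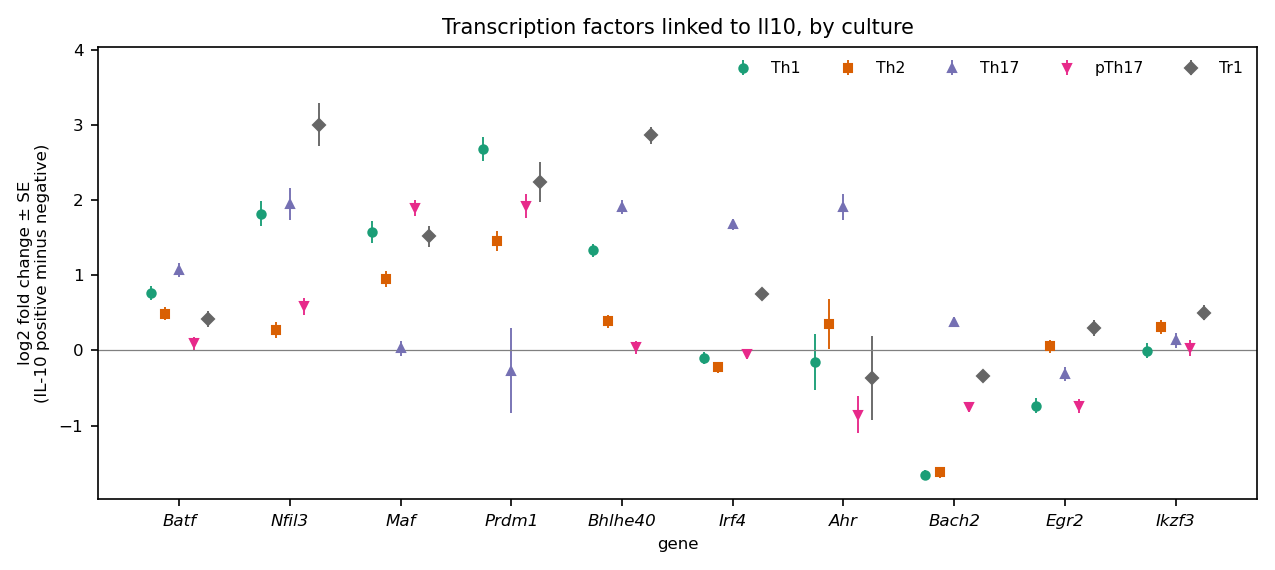
Points are log2 fold changes, IL-10 positive minus negative, ± SE (edgeR, 3 against 3 libraries per culture) of 10 transcription factor genes linked to Il10, with 1 symbol per culture. Batf and Nfil3 lie above 0 in all 5 cultures, Maf and Prdm1 in 4 with Th17 near or below 0, and Bach2 lies below 0 in 4 and above it in Th17 (0.38).

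Signalling and cytoskeletal genes with large differences in all cultures included Asb2, the substrate receptor of a cullin ubiquitin ligase (2.75 ± 0.12), Myo1f, a class I myosin of leukocytes (2.58 ± 0.06, 1.03 (pTh17) to 3.87 (Tr1)), Ptpn5, a tyrosine phosphatase acting on MAP kinases (2.24 ± 0.16, 1.41 (pTh17) to 3.57 (Th1)), and Myadm, a membrane protein (2.23 ± 0.21). Myo1f stood at 20.1, 20.8 and 14.5 CPM in Th17 positive libraries against 2.13, 1.52 and 1.39 in negative ones, and at 49.2, 44.2 and 40.3 CPM in pTh17 positive libraries against 24.2, 20.3 and 20.9 in negative ones. For this 1 gene the difference was thus 3.45 ± 0.21 in Th17 and 1.03 ± 0.11 in pTh17. Serpinf1, a secreted serpin, stood at 46.6, 44.6 and 41.2 CPM in Th17 positive libraries against 6.72, 3.35 and 2.63 in negative ones, at 239, 222 and 214 CPM in pTh17 positive libraries against 173, 154 and 165 in negative ones, and at 1.89, 1.202 and 0.443 CPM in Tr1 positive libraries with all 3 Tr1 negative libraries at 0, at least 6.69-fold higher on the same basis. Ltbp3 was at 0 in the negative groups of Th17 and Tr1. With Il1r2, Serpinf1 and Ltbp3 entered at these lower bounds, the median of the higher genes was 1.06 over cultures and 1.18 in Tr1.

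**Figure D4:**
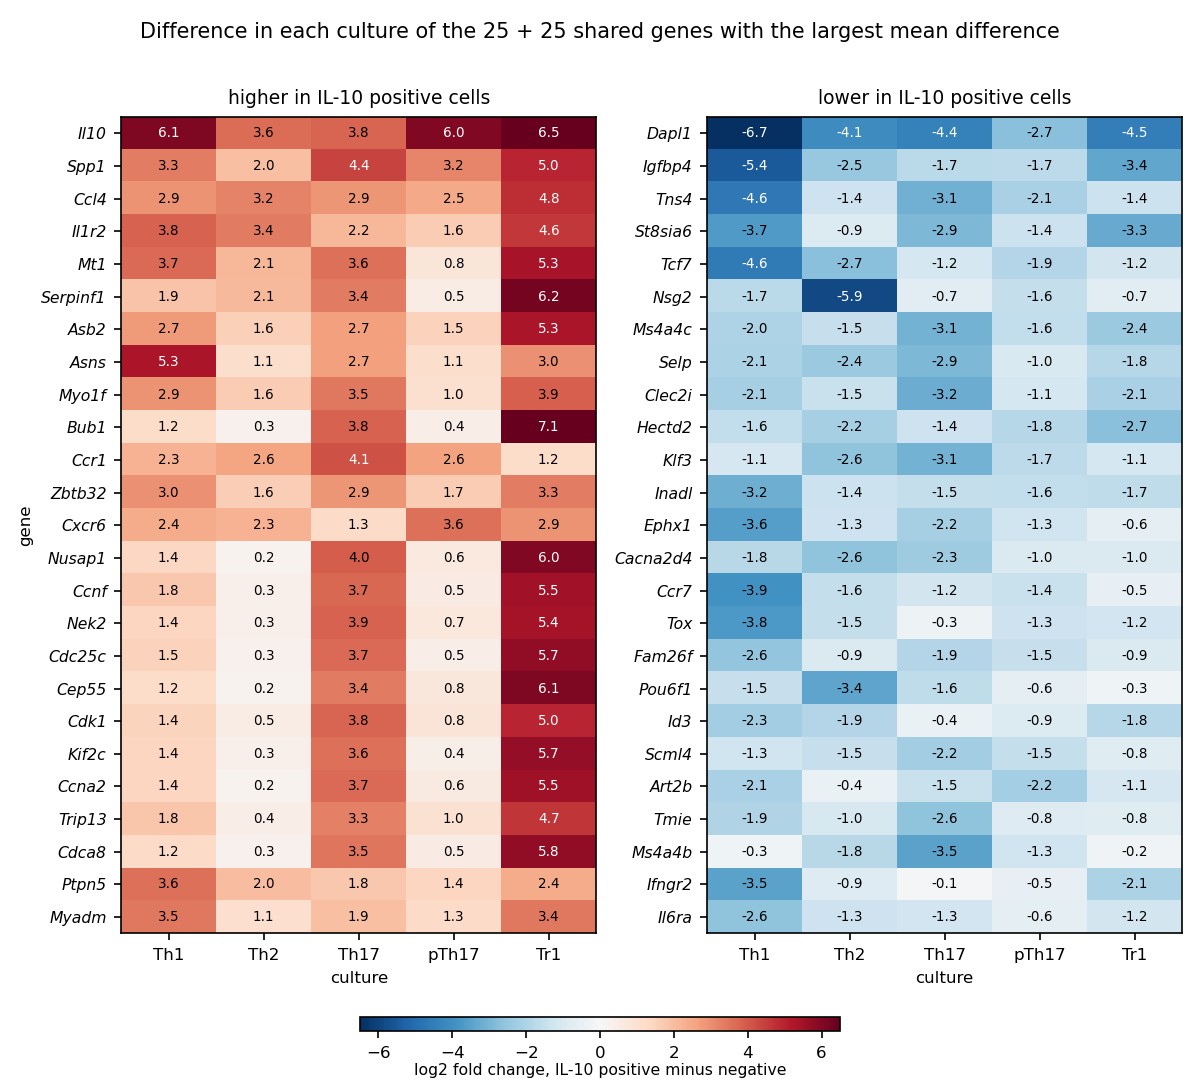
Each cell gives the log2 fold change, IL-10 positive minus negative, of 1 gene (rows) in 1 culture (columns), for the 25 higher (left) and 25 lower (right) genes of the program with the largest mean difference at 5 CPM or more. Colour runs from blue (lower in positive libraries) to red (higher), the Tr1 values of Il1r2 and Serpinf1 were fitted against negative libraries at 0, and those of Spp1, Bub1, Cdc25c and Myadm in Tr1 and of Nsg2 and Pou6f1 in Th2 rest on a group with at most 3 counts. Cdk1 shows 0.49 in Th2 and 4.97 in Tr1, whereas Zbtb32 and Cxcr6 differ in all 5 cultures by at least 1.26.

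Of all gene lists the mitosis list gave the most members. Of 22 mitosis genes on the list, all tested, 22 were called higher and 20 met the rule, beside 2.86% of all genes. The median log2 fold change of the list was 1.95 over cultures, 4.005 in Tr1, 3.44 in Th17, 1.22 in Th1, 0.48 in pTh17 and 0.25 in Th2. Cdk1 is the kinase that starts mitosis. Cdk1 stood at 46.03, 50.6 and 57.3 CPM in the positive and 18.9, 19.00 and 18.6 in the negative Th1 libraries, and at 228, 225 and 225 in the positive and 155, 156 and 173 in the negative Th2 libraries. For Cdk1 the Th17 values were 134, 129 and 128 CPM in positive and 10.7, 7.45 and 10.2 in negative libraries, those of pTh17 137, 140.4 and 146 in positive and 72.1, 75.3 and 87.98 in negative ones, and those of Tr1 36.8, 33.2 and 24.6 in positive and 1.83, 0.947 and 0.427 in negative ones. The groups were apart everywhere, but the negative Th2 and pTh17 libraries held more Cdk1 than the positive Th1 and Tr1 libraries did. The mean difference was 2.31 ± 0.06 (0.49 (Th2) to 4.97 (Tr1)). Bub1, a spindle checkpoint kinase, differed by 2.58 ± 0.09, Nusap1, a spindle protein, by 2.44 ± 0.06, and Ccnf, Cdc25c and Cep55, genes of the same phase outside the list, by 2.36 ± 0.06, 2.34 ± 0.13 and 2.32 ± 0.09. In such bulk libraries fewer cells of a type, here cells in division, and less RNA per cell cannot be told apart.

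DNA replication genes behaved differently in Th2. All 24 on the list were called higher in the mean, with medians of 2.71 in Th17, 1.32 in Th1, 1.17 in Tr1 and 0.51 in pTh17, but -0.03 in Th2. There 4 of the 24 had all positive libraries above and 6 all below the negative ones, beside 20.9% and 17.8% of all tested genes. Only Rrm2 and Rrm1, the subunits of ribonucleotide reductase, and Mcm6, part of the replicative helicase, met the rule in all cultures, with mean differences of 1.93 ± 0.05, 1.38 ± 0.04 and 1.06 ± 0.04. The mitosis list in Th2 had 20 of 22 genes above and 1 below. Cdkn1a, which encodes the cell cycle inhibitor p21, met the rule as higher too, at 2.05 ± 0.12 (0.89 (pTh17) to 2.79 (Th1)).

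The promoters of the mitosis genes were examined because 20 of them moved together. In the 250 bases before and 50 after the start site in RefSeq's GRCm38.p6 annotation (the assembly of mm10), CCAAT, the letters of the NF-Y box, and TTTGAA, the letters of a cell cycle homology region, occurred together on either strand in 13 of 18 mitosis promoters with a sequence (72.2%). The share was 14.7% over the 293 higher genes of the program with a sequence, 4.41% over 204 lower genes and 5.63% over 10070 tested genes, so most higher genes held no such pair. The DNA replication genes held both in 5.26% of 19 promoters. Within the 150 bases before the start alone, both occurred in 6 of the 18 (33.3%), against 2.0% of all tested genes. Of the 16 mitosis genes with a sequence that met the rule 5 held both there, and the others, such as Ccnb1, Plk1, Aurka and Bub1, held no TTTGAA in that window. From these 5 promoters 4 are printed, chosen because they hold both, over the 150 bases before the start, 5′ to 3′ on the gene's strand, with capitals at CCAAT or its reverse complement ATTGG and at TTTGAA or its reverse complement TTCAAA. They lie at chr10:69352913-69353062 on the minus strand, chr4:118437344-118437493 on the minus strand, chr2:164769779-164769928 on the plus strand and chr19:37376232-37376381 on the plus strand.
Cdk1: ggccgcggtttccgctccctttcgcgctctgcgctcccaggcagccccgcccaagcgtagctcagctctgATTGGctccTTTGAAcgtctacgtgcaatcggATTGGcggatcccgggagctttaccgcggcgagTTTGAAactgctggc
Cdc20: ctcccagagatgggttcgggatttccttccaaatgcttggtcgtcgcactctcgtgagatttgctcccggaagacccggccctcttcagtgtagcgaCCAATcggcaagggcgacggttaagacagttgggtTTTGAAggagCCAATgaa
Ube2c: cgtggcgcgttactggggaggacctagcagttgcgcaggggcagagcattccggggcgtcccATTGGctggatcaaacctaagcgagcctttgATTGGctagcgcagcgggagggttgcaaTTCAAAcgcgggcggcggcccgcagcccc
Kif11: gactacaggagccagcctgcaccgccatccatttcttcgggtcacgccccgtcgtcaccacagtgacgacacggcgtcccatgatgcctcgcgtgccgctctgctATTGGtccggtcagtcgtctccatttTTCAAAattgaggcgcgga
Cdk1 and Cdc20 differed by 2.31 ± 0.06 and 1.81 ± 0.06, Ube2c, which encodes a ubiquitin-conjugating enzyme of the anaphase promoting complex, by 2.15 ± 0.05, and Kif11, a spindle motor, by 1.94 ± 0.06. Each of the 4 stretches holds both sets of letters, a description of the sequence that says nothing of binding.

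The other motifs searched on both strands had these shares of promoters. TGANTCA, the AP-1 letters that Batf partners bind, occurred in 6.83% of higher and 4.9% of lower genes against 5.27% of all tested genes, and TGCTGAC, a Maf recognition element in short form, in 5.8% and 2.45% against 3.56%. TTCNNNGAA, the STAT letters, occurred in 5.8% and 6.37% against 6.96%, and CACGTG, an E-box, in 11.6% and 7.84% against 10.2%. GGTGTGA, the T-box letters, were in 2.39% of higher and 6.86% of lower genes against 3.46%. CTTTGAT or CTTTGAA, the letters of Tcf and Lef factors, of which the second contains TTTGAA, were in 6.83% and 8.33% against 6.28%. TGCACNC or TGCGCNC, the core of the metal response element, was in 34.1% and 39.7% against 35.5%.

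Genes of cholesterol synthesis were higher as a group. All 24 tested were called higher in the mean and 6 met the rule, with medians of 1.21 in Th1, 0.94 in Th17, 0.67 in Tr1, 0.24 in Th2 and 0.09 in pTh17. The 6 were Hmgcs1, the enzyme at the entry of the pathway (0.70 ± 0.03), Idi1, an isopentenyl isomerase (1.249 ± 0.05), Sqle, the squalene epoxidase (1.01 ± 0.05), Lss, which closes the sterol rings (0.78 ± 0.05), and Sc4mol and Hsd17b7, which act on the C4 position of the sterol (0.66 ± 0.04 and 0.92 ± 0.09). Idi1 stood at 299.9, 271 and 267 CPM in the positive and 118, 91.7 and 92.1 in the negative Th1 libraries, and at 213, 222 and 220.2 in the positive and 189.8, 177 and 202 in the negative Th2 libraries. Th17 libraries showed 87.05, 93.6 and 90.1 CPM of Idi1 when positive and 23.7, 29.2 and 23.8 when negative, pTh17 libraries 257, 248 and 247 when positive and 211, 159 and 180.0 when negative, and Tr1 libraries 36.1, 40.1 and 42.4 when positive and 8.93, 7.38 and 7.97 when negative. The Th2 groups were closest, at a difference of 0.20 ± 0.08, but did not overlap. CCAAT occurred in 15 of 17 promoters of the list (88.2%), against 39.8% of all. The promoter of Hmgcs1 over 200 bases before the start (chr13:119690151-119690350 on the plus strand) and that of Sc4mol (chr8:64733579-64733778 on the minus strand) hold several, in capitals as CCAAT or ATTGG.
Hmgcs1: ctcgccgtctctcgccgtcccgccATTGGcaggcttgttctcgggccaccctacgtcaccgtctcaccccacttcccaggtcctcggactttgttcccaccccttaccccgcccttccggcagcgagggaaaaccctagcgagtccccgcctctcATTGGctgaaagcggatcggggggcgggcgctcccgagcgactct
Sc4mol: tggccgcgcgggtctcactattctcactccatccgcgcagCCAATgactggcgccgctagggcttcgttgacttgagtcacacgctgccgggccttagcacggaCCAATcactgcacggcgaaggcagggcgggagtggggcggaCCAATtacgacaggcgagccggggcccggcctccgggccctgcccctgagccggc
The letters occur 2 times in Hmgcs1 and 3 times in Sc4mol within these stretches. Fads2, a fatty acid desaturase (2.13 ± 0.18), and Fabp5, a fatty acid carrier (1.77 ± 0.09), also met the rule, the only 2 of 14 tested genes of the fatty acid list.

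Genes of amino acid and sugar metabolism were part of the program. Asns encodes asparagine synthetase, a target of Atf4. Asns stood at 10.2, 8.49 and 9.77 CPM in the positive and 0.207, 0.322 and 0.142 in the negative Th1 libraries, and at 3.59, 4.63 and 7.70 in the positive and 2.72, 2.42 and 2.12 in the negative Th2 libraries. Positive Th17 libraries held 12.6, 10.8 and 10.01 CPM and negative ones 2.29, 1.67 and 1.24, positive pTh17 libraries 23.3, 34.6 and 35.2 and negative ones 14.7, 12.1 and 15.2, and positive Tr1 libraries 3.06, 0.801 and 1.99 and negative ones 0.203, 0 and 0.427. The levels were low throughout, and the differences were smallest in Th2 (1.13) and pTh17 (1.14). The mean difference was 2.64 ± 0.20. From a list of 29 tested Atf4 targets, serine synthesis genes and tRNA synthetases, put together after values were seen, 26 were called higher, 2 lower and 9 met the rule. Phgdh and Psat1, the first enzymes of serine synthesis, differed by 1.09 ± 0.05 and 1.003 ± 0.05, and the synthetase genes Aars, Gars, Farsb, Hars and Lars by 0.74, 0.51, 0.39, 0.32 and 0.29. Of 22 glycolysis genes tested 18 were called higher and 3 lower, and Pgk1 (0.79 ± 0.03), Pgam1 (0.65 ± 0.03) and Pkm (0.55 ± 0.02), all in the lower part of the pathway, met the rule. The glycolysis list had a median of 1.30 in Th17 and 0.02 in pTh17. Of 20 tested TCA cycle genes 13 were called higher and only Idh3a met the rule (0.48 ± 0.04).

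Mt1 encodes a metallothionein, a zinc-binding protein that zinc itself induces. Mt1 stood at 40.1, 48.3 and 49.2 CPM in the positive and 4.77, 1.93 and 4.26 in the negative Th1 libraries, and at 19.7, 17.1 and 17.9 in the positive and 3.40, 4.75 and 4.23 in the negative Th2 libraries. For Mt1 the Th17 values were 21.4, 21.5 and 21.7 CPM in positive and 1.64, 2.13 and 1.55 in negative libraries, those of pTh17 50.1, 54.2 and 56.9 in positive and 29.3, 30.3 and 34.7 in negative ones, and those of Tr1 7.07, 10.6 and 12.4 in positive and 0, 0.568 and 0.142 in negative ones. Every culture kept its groups apart, and the mean difference was 3.10 ± 0.11, with the smallest, 0.77 ± 0.13, in pTh17. Mt2, its close paralog, with which reads may be shared, did not meet the rule: it stood at 7.42, 9.17 and 10.2 CPM in Th1 positive libraries against 0.623, 0.322 and 0.284 in negative ones and at 6.55, 9.21 and 8.55 CPM in pTh17 positive libraries against 5.42, 6.77 and 6.94 in negative ones. Of the 16 metallothionein and zinc transport genes tested 8 were called higher, 1 lower, and no other met the rule.

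Genes of protein folding and export were higher in most cultures. Of 22 genes of folding in the endoplasmic reticulum (ER), 20 were called higher and 2 lower. Atf6, a sensor of ER stress (1.09 ± 0.04), Sdf2l1 (1.05 ± 0.06), Pdia6, a disulfide isomerase (0.73 ± 0.04), Hsp90b1, the ER form of Hsp90 (0.72 ± 0.03), Manf (0.60 ± 0.04) and Canx, which encodes calnexin (0.43 ± 0.03), met the rule. The list's medians ran from 0.18 in Tr1 to 0.79 in Th1. From 20 genes of the translocon and oligosaccharyl transferase, a list made after values were seen, 19 were called higher, 1 lower, and Ssr1 (0.50 ± 0.03), Rpn2 (0.52 ± 0.03), Ddost (0.42 ± 0.03) and Krtcap2 (0.43 ± 0.04) met the rule.

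Survival and death genes of opposite roles met the rule as higher. Of 14 tested BCL-2 family genes 10 were called higher and 2 lower, and 4 met the rule. The 2 called lower were the anti-apoptotic Bcl2 (-0.85 ± 0.04, edgeR adjusted p = 1.79e-21) and Mcl1 (-0.39 ± 0.03, adjusted p = 4.23e-14), named after their values were seen. Bcl2 stood at 16.7, 16.6 and 14.9 CPM in Tr1 positive libraries against 62.9, 63.6 and 58.5 in negative ones, and its positive libraries lay below the negative ones in every culture but Th17, where they lay above. Mcl1 had all positive libraries below in every culture but pTh17. Bcl2l1, which encodes the anti-apoptotic Bcl-xL, differed by 1.19 ± 0.04, and the anti-apoptotic Bcl2a1b and Bcl2a1d by 1.12 ± 0.05 and 1.95 ± 0.11; these 2 are near-identical copies, so the split of reads between them is uncertain. Pmaip1, which encodes the pro-apoptotic Noxa, differed by 1.01 ± 0.07. Ripk3 and Mlkl, which carry out necroptosis (0.56 ± 0.04 and 1.18 ± 0.11), also met the rule and were picked out after their values were seen. Of 22 tested p53 target genes, again a list made after values were seen, 13 were called higher and 6 lower, with Cdkn1a, Perp (2.04 ± 0.14), Pmaip1, Zmat3 and Rps27l higher and Ddb2 (-0.58 ± 0.05) lower under the rule.

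All 22 tested genes of the cytoskeleton, S100, galectin and annexin list were called higher, with medians of 1.60 in Tr1, 1.39 in Th1, 0.49 in Th17, 0.28 in Th2 and 0.23 in pTh17. 5 of them met the rule. Vim, which encodes vimentin, stood at 2789 ± 41.5 CPM in Th1 positive libraries against 664 ± 16.6 in negative ones, and at 1194 ± 17.6 CPM in pTh17 positive libraries against 645 ± 18.3 in negative ones (SD, n = 3), with a mean difference of 1.29 ± 0.03. Anxa2, an annexin, differed by 1.18 ± 0.03, Capg, an actin capping protein, by 0.84 ± 0.05, Tagln2, an actin-binding protein, by 0.64 ± 0.03, and Actg1, gamma actin, by 0.55 ± 0.02. Of 23 tested actin and tubulin genes, a list made after values were seen, 19 were called higher, 2 lower and 11 met the rule. The alpha tubulin genes Tuba1a, Tuba1b and Tuba1c, which lie together on chromosome 15 and are close copies, differed by 0.45, 0.96 and 1.03. Among adhesion and protease genes (20 tested, 15 called higher and 4 lower) Itgb1 and Itgal, integrin chains, differed by 0.76 ± 0.07 and 0.42 ± 0.03, Adam19, a membrane protease, by 1.12 ± 0.05, and Ctla2a and Ctla2b, which encode cysteine protease inhibitors, by 1.18 ± 0.04 and 1.74 ± 0.06. Adamts6 was the exception among them, at -0.98 ± 0.12.

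The lower part of the program was led by genes of naive and resting T cells. Of 28 tested, 26 were called lower and 1 higher, and 17 met the rule as lower, beside 2.03% of all genes. The list's medians were -1.41 in Th2, -1.19 in Th17, -0.78 in pTh17, -0.69 in Th1 and -0.49 in Tr1. Tcf7 encodes TCF-1, a factor that holds T cells in a naive or stem-like state. Tcf7 stood at 28.9, 32.1 and 26.2 CPM in the positive and 649, 734 and 724 in the negative Th1 libraries, and at 43.01, 39.6 and 35.7 in the positive and 259, 253 and 265 in the negative Th2 libraries. Th17 libraries showed 1033, 925 and 989 CPM of Tcf7 when positive and 2136, 2224 and 2245 when negative, pTh17 libraries 167, 166 and 186 when positive and 607, 699 and 639 when negative, and Tr1 libraries 681, 714 and 646 when positive and 1501, 1586 and 1621 when negative. The groups were apart within each culture, yet the Th17 positive libraries held more Tcf7 than any negative library of Th1, Th2 and pTh17. The mean difference was -2.32 ± 0.03. Its partner Lef1 differed by -0.55 ± 0.03, and the other factors of resting T cells by -1.93 ± 0.09 (Klf3), -1.05 ± 0.07 (Klf2), -0.78 ± 0.03 (Foxp1) and -0.58 ± 0.04 (Foxo1).

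Dapl1 had the largest mean difference of all lower genes. Dapl1 stood at 0.144, 0.226 and 0.251 CPM in the positive and 21.6, 24.5 and 25.7 in the negative Th1 libraries, and at 1.29, 1.07 and 1.70 in the positive and 24.1, 19.8 and 26.1 in the negative Th2 libraries. Positive Th17 libraries held 1.26, 0.654 and 0.468 CPM and negative ones 19.2, 17.03 and 15.2, positive pTh17 libraries 0.357, 1.07 and 0.428 and negative ones 3.37, 4.04 and 4.94, and positive Tr1 libraries 0.943, 0.401 and 0.222 and negative ones 13.4, 11.6 and 11.2. Every positive library lay below every negative one, across cultures too, and the mean log2 fold change was -4.49 ± 0.14. Igfbp4, which encodes a binding protein of insulin-like growth factors, was far more abundant. Igfbp4 stood at 33.95, 28.1 and 27.3 CPM in the positive and 1202, 1294 and 1370.0 in the negative Th1 libraries, and at 27.4, 27.7 and 29.7 in the positive and 172, 144 and 157 in the negative Th2 libraries. For Igfbp4 the Th17 values were 2130.0, 2036 and 2038 CPM in positive and 6768, 7036 and 7054 in negative libraries, those of pTh17 426, 508 and 575 in positive and 1533, 1679 and 1751 in negative ones, and those of Tr1 22.6, 22.8 and 18.4 in positive and 216, 202 and 240.0 in negative ones. Its groups stayed apart at every level, with a mean difference of -2.95 ± 0.04. Igfbp4 (chr11:99040005-99052655), Tns4 (chr11:99065678-99089306) and Ccr7 (chr11:99144199-99155077) lie close together on chromosome 11, and Tns4, a tensin, differed by -2.53 ± 0.14.

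Receptors for lymph nodes and egress were lower. Ccr7 guides naive T cells into lymph nodes. Ccr7 stood at 81.5, 74.03 and 70.5 CPM in the positive and 1226, 1142 and 1106 in the negative Th1 libraries, and at 69.3, 65.9 and 71.01 in the positive and 208, 193 and 205 in the negative Th2 libraries. Th17 libraries showed 807, 721 and 743 CPM of Ccr7 when positive and 1748, 1664 and 1727 when negative, pTh17 libraries 346, 366 and 389 when positive and 952, 989 and 1057 when negative, and Tr1 libraries 771, 823 and 783 when positive and 1125, 1102 and 1199 when negative. The groups did not overlap, and the mean difference was -1.73 ± 0.03, with culture values of -3.94 (Th1) to -0.53 (Tr1). S1pr1, which lets cells leave lymph nodes, differed by -1.33 ± 0.04. Selp, which encodes P-selectin, differed by -2.04 ± 0.09 (-2.90 (Th17) to -1.01 (pTh17)). Other lower genes with large differences were St8sia6, a sialyltransferase (-2.44 ± 0.14), Nsg2 (-2.12 ± 0.08), Ms4a4c and Ms4a4b, membrane proteins of 1 family whose reads may be shared (-2.12 ± 0.10 and -1.42 ± 0.03), Clec2i, a lectin (-2.02 ± 0.11), Inadl, a PDZ scaffold of cell polarity (-1.87 ± 0.05), and Ephx1, an epoxide hydrolase (-1.79 ± 0.05). Tox, an HMG-box factor known from exhausted T cells, was lower at -1.63 ± 0.06 (-3.75 (Th1) to -0.31 (Th17)), as was Id3, an inhibitor of E proteins, at -1.48 ± 0.07.

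Signalling genes below the T cell receptor differed between cultures. Of 21 tested 12 were called lower and 4 higher in the mean over cultures, but the list's medians were 0.11 in Th1, -0.00068 in Th2, -0.35 in Th17, -0.11 in pTh17 and -0.06 in Tr1. In Th1 11 of them had all positive libraries above and 6 all below the negative ones, in Tr1 8 and 7, and in Th17 5 and 16. The shares of all tested genes were 26.8% and 24.6% in Th1, 23.7% and 17.7% in Tr1, and 31.2% and 31.2% in Th17. Some of the list's counts lie near these shares. Txk, a Tec kinase (-1.06 ± 0.05), Cd69, an early activation antigen that retains cells in tissue (-1.34 ± 0.05), and Plcg1, the phospholipase of the pathway (-0.48 ± 0.04, culture values -0.58 (Th1) to -0.36 (pTh17)), met the rule as lower. Stat6 was the only member among 13 STAT and SOCS genes (-0.27 ± 0.03), of which 10 were called lower and 3 higher. Spry1, a feedback inhibitor of the ERK pathway, differed by -0.996 ± 0.08, and Cblb, a ubiquitin ligase that raises the activation threshold of T cells, by -0.68 ± 0.03, the second picked out after its values were seen. Gimap3 and Gimap9, GTPases of lymphocyte survival, differed by -0.48 ± 0.02 and -0.34 ± 0.03, and 7 of 8 tested Gimap genes were called lower in the mean over cultures. The Gimap medians were -0.78 in Th17, -0.14 in Th1, -0.08 in Th2, -0.06 in pTh17 and -0.004 in Tr1. All positive libraries lay below the negative ones for 8 Gimap genes in Th17, and in Tr1 for 2, with 3 above.

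Chromatin enzymes were put in a list after values were seen, so its counts may reflect how it was picked. Of its 25 tested genes 18 were called lower and 4 higher, beside 28.2% and 29.6% of all genes. The rule was met by 11 as lower and 2 as higher, beside 2.03% and 2.86% of all genes. Lower were the methyltransferase genes Mll2 (-0.49), Mll3 (-0.55), Setd2 (-0.47), Ash1l (-0.63) and Whsc1l1 (-0.50), the demethylase genes Kdm6b (-0.57 ± 0.05) and Kdm3a (-0.44 ± 0.04), and Tet3, which oxidises methylcytosine (-0.71 ± 0.04). Higher were Ezh2, the methyltransferase of polycomb complex 2 (0.65 ± 0.05), and Suv39h1, which methylates histone H3 in heterochromatin (0.82 ± 0.06). Kdm6b, which removes the mark that Ezh2 writes, stood at 17.8, 15.1 and 17.2 CPM in Th1 positive libraries against 27.2, 38.2 and 33.7 in negative ones, and Ezh2 at 31.4, 28.5 and 26.2 CPM in Th1 positive libraries against 25.5, 19.5 and 20.03 in negative ones. In pTh17 the pair stood at 48.5, 50.8 and 46.6 (Kdm6b) and 55.8, 59.6 and 57.01 CPM (Ezh2) in positive libraries, against 56.1, 64.3 and 51.3 (Kdm6b) and 45.5, 48.2 and 42.9 CPM (Ezh2) in negative ones.

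Several of the lists with many differing genes gave no member. Of 14 tested cytotoxic granule genes 9 were called higher and 1 lower in the mean, with medians of 1.52 in Th1, 0.998 in Tr1 and 0.10 in Th17, and none met the rule. Of 31 interferon-stimulated genes 19 were called lower and 7 higher, with medians of -1.12 in Th17 and 0.40 in Th1. Of 24 ribosomal protein genes on the list 22 were called lower and 1 higher, with all positive libraries below in 22 or 23 of them in Th1, Th2 and pTh17 and above in 17 in Th17. Over all tested genes these shares were 24.6% below in Th1, 17.8% in Th2 and 15.3% in pTh17, and 31.2% above in Th17. Outside that list, Rps15a and Fau, which encode proteins of the small ribosomal subunit, met the rule as lower (-0.34 ± 0.03 and -0.32 ± 0.03). The 20 Myc and ribosome biogenesis genes had all positive libraries above in 20 in Th17 and in 1, 1, 2 and 6 in Th1, Th2, pTh17 and Tr1. Over all tested genes the shares above were 31.2% in Th17 and 26.8%, 20.9%, 17.4% and 23.7% in Th1, Th2, pTh17 and Tr1.

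**Figure D5:**
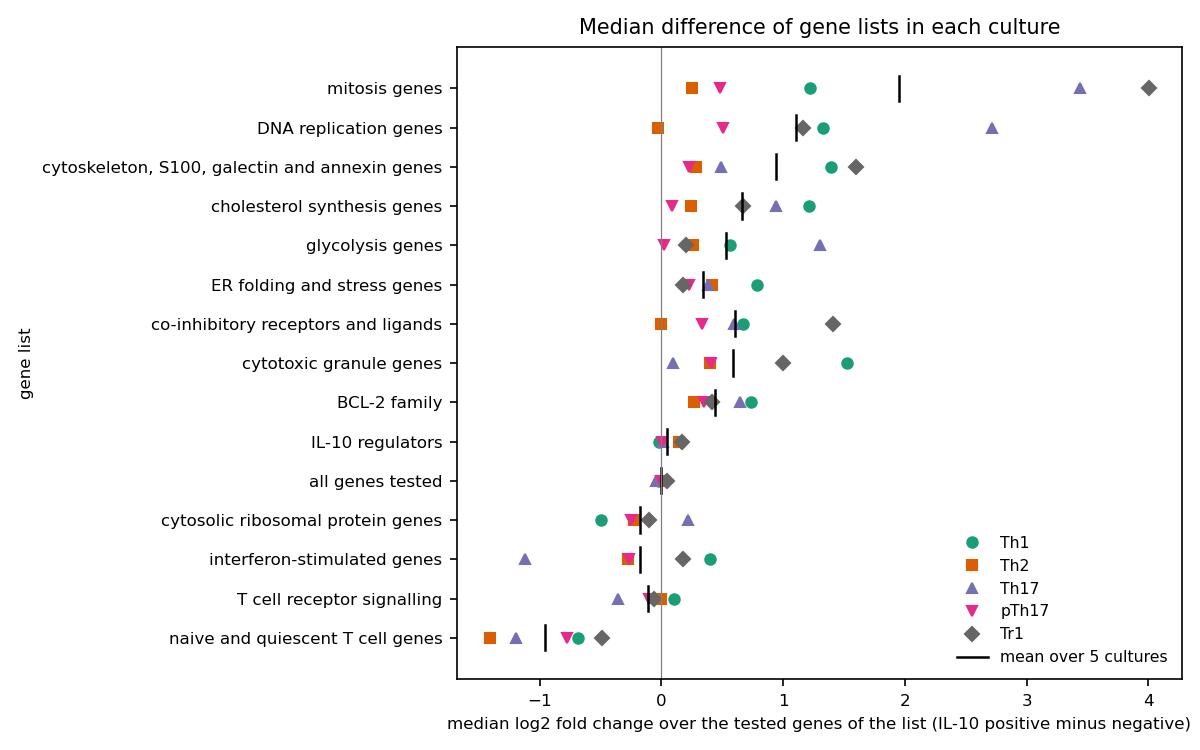
Symbols give, for each culture, the median log2 fold change (x axis, IL-10 positive minus negative) over the tested genes of a list (y axis), and the black line the median of the mean over cultures. Mitosis genes lie right of 0 and naive T cell genes left of 0 in all 5 cultures, whereas ribosomal protein and interferon-stimulated genes lie on both sides.

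Some members of the program lay close together. Members of the same direction were grouped when the start of each lay within 100 kb of the start of the one before. Whether other genes lie between them was not checked. This gave 33 groups of 2 to 4 genes, among them Il10 and Mapkapk2, Zbtb32 and Haus5, Gstt1 and Gstt3, Ctla2a and Ctla2b, Gimap3 and Gimap9, H2-T10 and H2-T22, and Igfbp4, Tns4 and Ccr7. Several of these are gene pairs of common origin, whose reads may be split uncertainly, and the number was not compared with that of other genes. The members fell on all 19 autosomes and the X chromosome, with 40 higher genes on chromosome 2 and 31 on chromosome 11.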

How the data were processed

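Bulk RNA-seq libraries made with an adaptation of SMART-Seq2, per the labels' protocols, were deposited as 1 table per library. Expected counts per gene were deposited by the authors, who used RSEM with mm10 per the submitters' processing notes. Neither a version of RSEM nor an aligner is named there. The deposited TPM values served as an alternative, and the deposited FPKM and length columns were not used. The protocol as named uses no molecular identifiers and does not mark strand, so overlapping and antisense genes cannot be told apart, and reads of near-identical genes are split by estimate.

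Expected counts were rounded, filtered with filterByExpr (12611 of 23420 genes), scaled by TMM and fitted over all 10 groups with edgeR 4.0.16 in R 4.3.3 (quasi-likelihood test, Benjamini-Hochberg adjustment over all tested genes, threshold 0.05), with the positive minus negative difference averaged over the 5 cultures. Totals were 4394704 to 11850597 per library, which limits the precision of low genes. Separation was judged on the CPM of each library, and gaps on log2(CPM + 0.1). Names and starts came from RefSeq, which held 12574 of the tested genes. The steps were tested on simulated data.

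Named genes were Il10 and Thy1, the 25 members per direction with the largest mean difference at 5 CPM or more, up to 6 members of each list, up to 10 regulators of Il10, those nearest the edge of the rule, those with the narrowest or widest spread over cultures, and neighbours. Further genes were named after their values were seen, and 5 lists (p53 targets, Atf4 targets, translocon, actin and tubulin, chromatin enzymes) were made after values were seen. The members and all lists were chosen with earlier results of these data known. Alternatives were median-of-ratios size factors (as in DESeq2), other filters, thinning to the shallowest library, DESeq2 1.42.0, a replicate block, TPM, unscaled totals, a gap of at least 25%, and leaving out each library or culture.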

Additional observations from a re-analysis of the deposited data

Results flagged for a closer look

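Of the 10 regulators of Il10 drawn by culture, 4 had libraries that separated in opposite directions in different cultures. The difference between the cultures was not tested. Others of the list of 28 did so too, among them Hif1a (higher in Th1 and Th17, lower in Th2) and Irf1 (higher in Th1, lower in Th2, Th17 and pTh17). In Th17 cultures Ahr was higher in IL-10 positive cells, at a log2 fold change of 1.90, and in pTh17 cultures it was lower. Bach2 was higher in Th17, at 0.38, and lower in Th1, Th2, pTh17 and Tr1. Egr2 was higher in Tr1, at 0.30, and lower in Th1, Th17 and pTh17. Irf4 was higher in Th17, at 1.68, and in Tr1, and lower in Th2.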

How the results depend on the processing

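The number of genes that meet the rule depends on the cultures and the gap asked for. It was 65 higher and 43 lower with a gap of at least 25%, 560 higher and 394 lower without the Th2 culture, and 551 higher and 513 lower without the pTh17 culture. Without the Tr1 culture 396 genes were lower. With median-of-ratios size factors 388 genes were higher and 228 lower, of which 357 and 225 were members in the main analysis. With the deposited TPM values 388 were higher and 238 lower, with 305 and 182 members kept, and after thinning to the shallowest library 269 were higher and 185 lower, with 232 and 157 kept, so membership depends on depth.

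Leaving out 1 library at a time gave 360 to 421 higher and 258 to 293 lower genes under the rule, 3632 to 3773 called higher and 3424 to 3557 called lower in the mean comparison, and 10941 to 11257 genes with levels that differ among the negative groups. The rule is easier to meet with fewer libraries or cultures, by its construction. DESeq2 called 3987 genes higher and 3363 lower.

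No label says that numbers pair positive and negative libraries, and same-numbered libraries did not deviate together (correlations -0.097 to 0.134, not always highest with the own number). With a replicate block the mean comparison called 3738 genes higher and 3504 lower, and positive libraries lay above their same-numbered negative ones in all 15 pairs for 568 genes and below for 417.

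Of the mean differences of 194 named genes under 41 settings, 1 changed sign: that of Ahr was -0.26 (edgeR adjusted p = 0.337) without the Th17 culture, for which the cause was not tested. 4 others lost significance, those of Irf4, Ikzf3 and, under 2 settings, Cyp11a1.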
